A study of Rattus norvegicus with 8 samples.

Results

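The genes described here are 10 genes of the oxidative stress response: Osgin1, Nqo1, Gclc, Gclm, Hmox1, Txnrd1, Gsr, Sod1, Sod2 and Cat. They are 10 of the 14217 genes with a probe set of their own on the array, and all 10 were measured, by 12 probe sets. The genes were chosen by their function with results of the diet comparison in these livers known, so the diet differences of all 10 are given as a description, without a test, and nothing is supported with them.

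The samples were livers of 8 male Sprague-Dawley rats aged 7 weeks, with 1 Affymetrix 3' expression array per rat. Rats of the L. brevis group (n = 4 arrays) ate, for 2 weeks, a CRF-1 rodent chow to which 10 g cholesterol, 5 g cholic acid and 10 g of freeze-dried live Lactobacillus brevis 119-2 had been added per kg. Control rats (n = 4 arrays) ate the same cholesterol and cholic acid chow without the bacterium, so both groups carried the cholesterol and bile acid load. Control arrays carry a source label with CRF-1 alone, and the study's design text was followed here. The study had 11 rats per group, and the labels call the arrays biological replicates.

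In resting cells the transcription factor NRF2 is held in the cytoplasm by KEAP1 and degraded. Electrophiles and oxidants modify KEAP1, NRF2 then enters the nucleus, pairs with small MAF proteins and binds antioxidant response elements near genes of glutathione synthesis, thioredoxin reduction and quinone reduction. In liver the system is known for the handling of drugs, electrophiles and peroxides.

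The promoters of 4 members are shown. Gclc, Gclm and Txnrd1 correlated from rat to rat, whereas no relation of Osgin1 with the other members passed the test. The pair of Gclc and Gclm did not pass after adjustment (exact permutation p = 0.0145, adjusted 0.0677 over 28 pairs). With the GAPDH quality value described below regressed out, Gclc had r of 0.31 with Gclm and 0.36 with Txnrd1, against 0.64 with Osgin1. Gclm and Txnrd1 then had r = 0.78. Shared regulation of these genes was not tested. The windows run from 250 bases before to 50 bases after the gene's start in RefSeq (GRCr8), 5′ to 3′ on the gene's strand, and capitals mark the core of the antioxidant response element, TGACNNNGC, searched on both strands.
Gclm promoter, chr2:213031885-213032184, plus strand: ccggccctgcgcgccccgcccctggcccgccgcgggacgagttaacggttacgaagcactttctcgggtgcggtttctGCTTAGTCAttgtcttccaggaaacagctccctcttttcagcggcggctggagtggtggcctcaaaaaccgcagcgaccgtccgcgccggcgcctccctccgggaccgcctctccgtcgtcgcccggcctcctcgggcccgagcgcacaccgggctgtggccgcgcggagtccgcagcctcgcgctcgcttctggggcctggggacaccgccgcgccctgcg
Txnrd1 promoter, chr7:22755855-22756154, minus strand: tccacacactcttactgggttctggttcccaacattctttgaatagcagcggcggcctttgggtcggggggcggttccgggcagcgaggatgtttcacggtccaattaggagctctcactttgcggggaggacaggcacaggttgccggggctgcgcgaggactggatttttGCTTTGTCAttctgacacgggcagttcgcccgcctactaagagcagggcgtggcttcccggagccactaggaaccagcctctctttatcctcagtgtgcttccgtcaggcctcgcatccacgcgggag
Gclc promoter, chr8:87510226-87510525, plus strand: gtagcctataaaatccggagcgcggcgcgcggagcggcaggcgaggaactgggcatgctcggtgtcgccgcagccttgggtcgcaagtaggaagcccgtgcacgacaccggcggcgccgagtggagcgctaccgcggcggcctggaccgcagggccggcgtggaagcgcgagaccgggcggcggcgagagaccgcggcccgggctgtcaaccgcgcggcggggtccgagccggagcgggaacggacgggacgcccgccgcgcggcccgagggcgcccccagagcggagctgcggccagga
Osgin1 promoter, chr19:64393651-64393950, plus strand: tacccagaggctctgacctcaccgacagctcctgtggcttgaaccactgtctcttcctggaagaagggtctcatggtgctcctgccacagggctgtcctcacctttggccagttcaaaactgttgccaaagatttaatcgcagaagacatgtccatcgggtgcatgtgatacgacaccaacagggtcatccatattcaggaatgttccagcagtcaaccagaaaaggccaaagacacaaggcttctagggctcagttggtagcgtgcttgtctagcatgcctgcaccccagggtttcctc
In Gclm the core lay 172 to 164 bases before the start and read TGACTAAGC on the opposite strand. In the Txnrd1 window shown it lay 78 to 70 bases before the start and read TGACAAAGC on the opposite strand. The Gclc and Osgin1 windows held no such letters, nor did the other Txnrd1 window or those of Nqo1, Sod1 and Cat, while Sod2 held 1 match. RefSeq windows were matched for 8 members, and Hmox1 and Gsr had none in the table used. The core was present in 3 of the 9 member windows (33.3%), in 23 of 89 windows of the other pathway genes listed for this description (25.8%) and in 12.1% of all 33469 windows. A match describes letters in a short window and is not a binding site.

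Values are log2 signals as the authors deposited them. Of the 31042 probe sets that are no array control, 24719 (79.6%) spanned at most 0.01 log2 over the 8 arrays. Such a probe set shows no difference between rats. The remaining 6323 spanned more than that and are termed varying below. Array medians over varying probe sets lay between 8.15 and 8.24. Hepatocyte markers were present in both groups, and the summed linear signal of the 5 varying ones was 48489 to 52161 in L. brevis livers and 49362 to 51488 in control livers, which overlap. In whole liver, fewer cells of a type and less RNA per cell cannot be told apart.

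A quality measure of the arrays had a higher mean in the L. brevis group and touches the results below. The labelling reaction starts at the 3' end of a transcript, so the signal of a control gene at its 5' end minus that at its 3' end is used as a measure of how complete the copied transcripts are. For GAPDH this value was -2.20, -1.30, -0.94 and -0.68 in L. brevis rats 1 to 4, against -2.89, -1.83, -2.93 and -1.98 log2 in control rats 1 to 4. L. brevis 1 was inside the control range and the other 3 L. brevis rats were above it. The difference was +1.13 (exact permutation p = 0.0857, two-sided). The same value for beta-actin differed by +0.87 (exact permutation p = 0.0857). The mean signal of the spiked poly-A controls was 7.40 to 8.24 in L. brevis arrays and 8.49 to 8.94 in control arrays, with no overlap (exact permutation p = 0.0286, the smallest that 4 against 4 allows). Each of these 3 measures had a p of 0.0857 after Benjamini-Hochberg adjustment over the 3.

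Of the 12 member probe sets, 9 varied, and they measured 8 of the 10 genes. Osgin1, Nqo1 and Cat had lower means in L. brevis livers, and Gclc, Gclm, Txnrd1, Gsr and Sod2 had higher ones. The diet groups did not overlap at 1 member probe set, that of Osgin1. Among all varying probe sets 7.09% had every L. brevis rat below every control and 4.21% had every L. brevis rat above every control. Since the genes were chosen with this comparison known, nothing is read from this.

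Osgin1, also known as Okl38, encodes an oxidative stress-induced growth inhibitor that is described as an NRF2 target in human cells. Its signal was 9.92, 9.29, 10.17 and 10.40 in L. brevis rats 1 to 4, against 10.46, 11.83, 12.78 and 11.11 in control rats 1 to 4. Every L. brevis liver was below every control liver, with control 1 just above L. brevis 4. The mean was 9.95 ± 0.48 in L. brevis livers and 11.55 ± 1.00 in control livers (SD, n = 4 each). The difference was -1.60 on the log2 scale (SE 0.55), so the signal was 3.03-fold lower with the bacterium. Control 3 and control 2 were the highest rats, and the controls spanned 2.32 log2 against 1.11 in the L. brevis group. Over all 8 rats Osgin1 spanned 3.49 log2, a span exceeded by 1.71% of varying probe sets, whose median span was 0.74. The difference ran from -1.96 to -1.19 when any 1 rat was left out. With the GAPDH 5' minus 3' value as a covariate it was -1.72 (SE 0.86). The signal of the spiked poly-A controls also separated the diets without overlap. It was not used as a covariate, and its relation to Osgin1 was not tested.

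The summed linear signal of 5 varying endothelial markers was 2812 to 3080 in L. brevis livers and 3157 to 4865 in control livers, so it was separated by diet like Osgin1. Every L. brevis rat was likewise below every control at 7.09% of all varying probe sets. All 5 of these markers (of 7 measured among 8 listed) had lower means in L. brevis livers, and Tek and Tie1 held 1 value throughout. The part of this cell type in the Osgin1 difference was not tested.

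**Figure D1:**
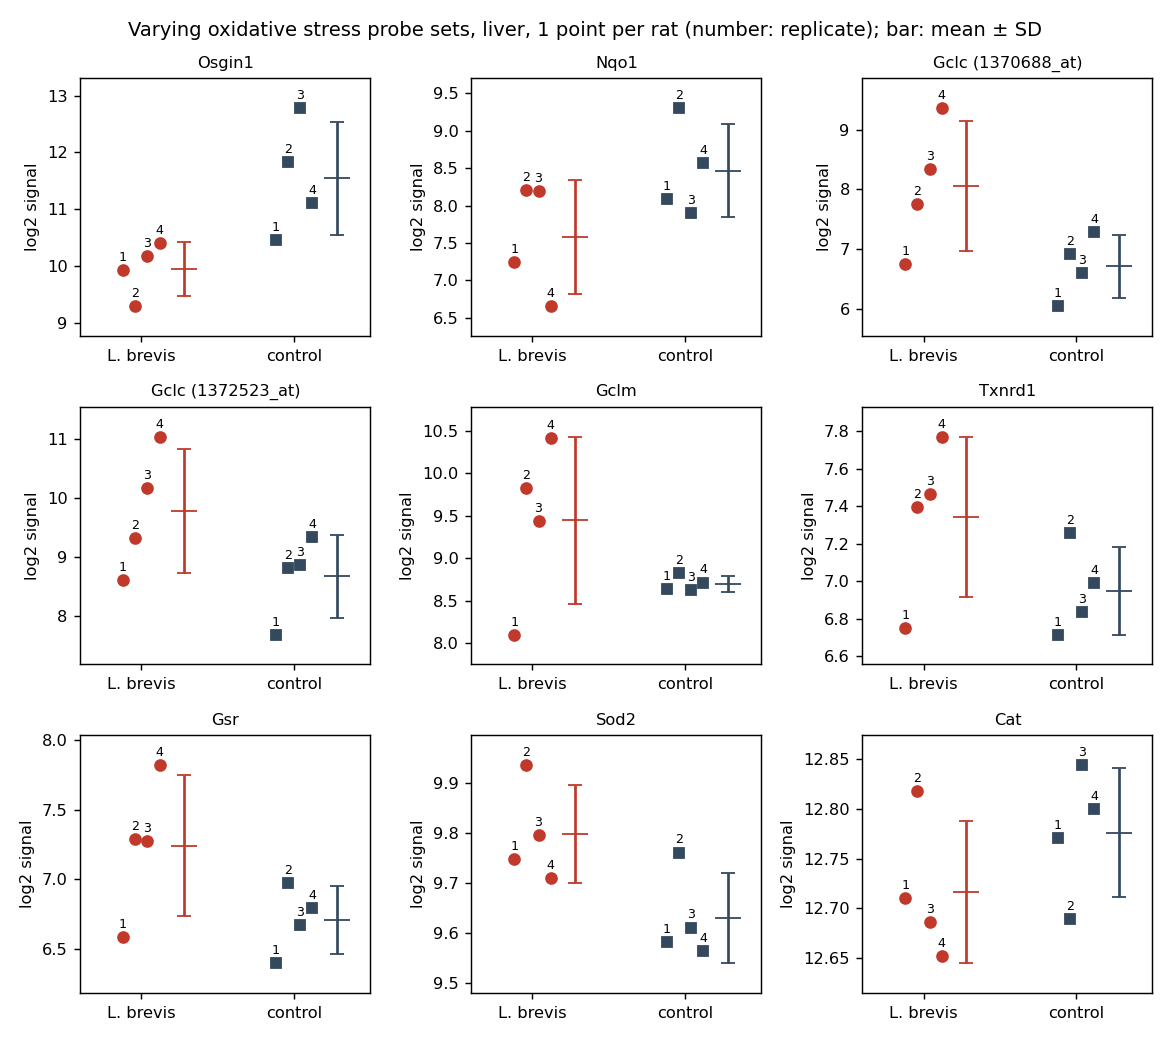
Log2 signal (vertical axes, each with its own range) of the 9 varying member probe sets in L. brevis rats (red circles) and control rats (dark squares), 1 point per rat with its replicate number; bars give the mean ± SD (n = 4 each). Osgin1 is the only panel in which the diets do not overlap, and L. brevis 1 is the lowest L. brevis rat for Gclc, Gclm, Txnrd1 and Gsr.

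Nqo1 encodes NAD(P)H quinone dehydrogenase 1, which reduces quinones to hydroquinones and is a widely used readout of NRF2 activity. Its signal was 7.25, 8.21, 8.20 and 6.66 in L. brevis rats 1 to 4, against 8.09, 9.30, 7.90 and 8.57 in control rats 1 to 4. L. brevis 4 and L. brevis 1 were below every control, while L. brevis 2 and L. brevis 3 were inside the control range. The mean was 7.58 ± 0.76 in L. brevis livers and 8.46 ± 0.62 in control livers (SD, n = 4 each), a difference of -0.89 (SE 0.49). It lay between -1.10 and -0.58 without any 1 rat, and was -1.34 (SE 0.71) with the GAPDH covariate.

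Glutathione is made from glutamate, cysteine and glycine, and the first and limiting step is catalysed by glutamate-cysteine ligase. Gclc encodes its catalytic subunit and was measured by 2 probe sets. At 1372523_at its signal was 8.62, 9.31, 10.16 and 11.04 in L. brevis rats 1 to 4, against 7.68, 8.82, 8.86 and 9.33 in control rats 1 to 4. At 1370688_at it was 6.76, 7.76, 8.33 and 9.36 in L. brevis rats 1 to 4, against 6.05, 6.92, 6.60 and 7.29 in control rats 1 to 4. Both probe sets ranked L. brevis 4 highest and control 1 lowest, and they correlated at r = 0.98 over the 8 rats and at 0.97 after the diet means were removed. The differences were +1.11 (SE 0.62), with 2 L. brevis rats above all controls, and +1.34 (SE 0.60), with 3 above all controls. Spans over 8 rats were 3.36 and 3.31 log2, exceeded by 1.87% and 1.98% of varying probe sets.

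Gclm encodes the modifier subunit, which makes the ligase more efficient. Its signal was 8.10, 9.83, 9.44 and 10.42 in L. brevis rats 1 to 4, against 8.63, 8.83, 8.63 and 8.71 in control rats 1 to 4. L. brevis 2, 3 and 4 were above every control and L. brevis 1 was below every control. The 4 controls lay within 0.20 log2 of each other, whereas the L. brevis rats spanned 2.32. The mean was 9.45 ± 0.98 in L. brevis livers and 8.70 ± 0.09 in control livers (SD, n = 4 each), a difference of +0.75 (SE 0.49).

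Gsr encodes glutathione reductase, which returns oxidised glutathione to its reduced form at the cost of NADPH. Its signal was 6.58, 7.29, 7.27 and 7.82 in L. brevis rats 1 to 4, against 6.40, 6.97, 6.67 and 6.80 in control rats 1 to 4, a difference of +0.53 (SE 0.28). Txnrd1 encodes the cytosolic thioredoxin reductase, a selenoprotein. At its varying probe set the signal was 6.75, 7.39, 7.46 and 7.77 in L. brevis rats 1 to 4, against 6.71, 7.26, 6.83 and 6.99 in control rats 1 to 4, a difference of +0.39 (SE 0.24). For both genes L. brevis 2, 3 and 4 were above every control and L. brevis 1 was inside the control range. The other Txnrd1 probe set, 1398791_at, held 9.39 on all 8 arrays.

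With the GAPDH 5' minus 3' value as a covariate the differences of these 4 genes were near zero or below it: -0.015 (SE 0.45) and -0.19 (SE 0.58) at the Gclc probe sets 1370688_at and 1372523_at, -0.19 (SE 0.51) for Gclm, -0.19 (SE 0.14) for Txnrd1 and -0.10 (SE 0.20) for Gsr. The covariate itself was higher in 3 of the 4 L. brevis rats than in any control, so diet and this quality measure cannot be fully told apart. Without any 1 rat and without the covariate, the differences kept their sign, from +0.69 to +1.50 and from +0.90 to +1.77 for Gclc, from +0.42 to +1.19 for Gclm, from +0.34 to +0.75 for Gsr and from +0.25 to +0.59 for Txnrd1.

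**Figure D2:**
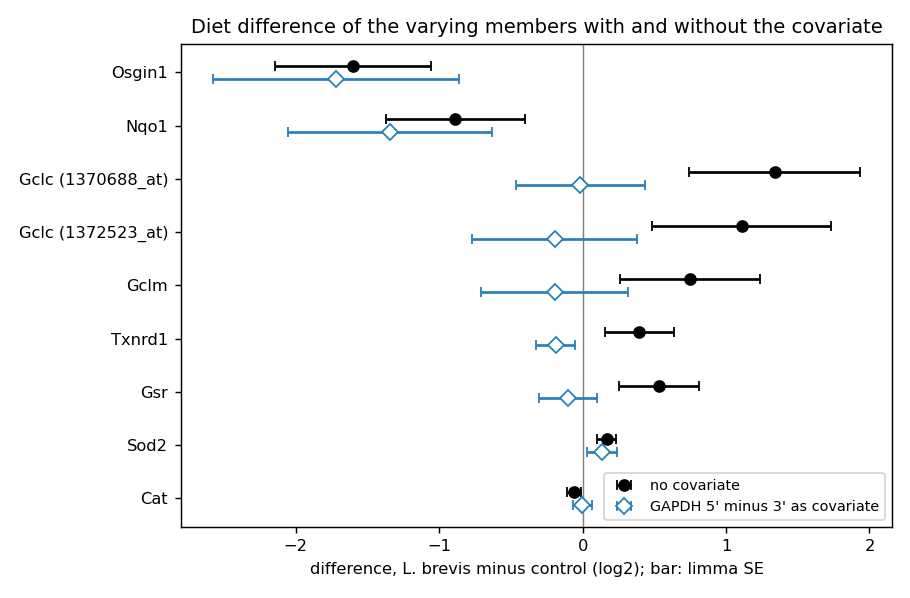
Difference in log2 signal, L. brevis minus control (horizontal axis), of the 9 varying member probe sets (rows) in the fit without a covariate (filled circles) and with the GAPDH 5' minus 3' value as a covariate (open diamonds); bars are the limma SE. Osgin1 stays near its value (-1.60 and -1.72), whereas Gclc, Gclm, Txnrd1 and Gsr move from above 0 to values between -0.19 and -0.015. No fit used the poly-A control signal as a covariate.

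The remaining members remove superoxide, peroxide and heme. Sod2 encodes the mitochondrial manganese superoxide dismutase, and its signal was 9.75, 9.94, 9.80 and 9.71 in L. brevis rats 1 to 4, against 9.58, 9.76, 9.61 and 9.56 in control rats 1 to 4. L. brevis 2 and 3 were above every control, and only control 2 among the controls reached into the L. brevis range. The difference was +0.17 (SE 0.07), or +0.13 (SE 0.10) with the GAPDH covariate. Cat encodes the peroxisomal catalase, and its signal was 12.71, 12.82, 12.69 and 12.65 in L. brevis rats 1 to 4, against 12.77, 12.69, 12.84 and 12.80 in control rats 1 to 4. The groups overlapped and differed by -0.06 (SE 0.05), or by -0.003 (SE 0.07) with the GAPDH covariate. The Cat difference was -0.11 under quantile normalization and -0.02 under median centring. Cat had the narrowest span of any varying member, 0.19 log2 over 8 rats. Hmox1, the inducible heme oxygenase, held 8.47 on all 8 arrays, and Sod1, the cytosolic copper-zinc superoxide dismutase, held 12.82. For both genes no difference between rats or diets could be measured.

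Whether other members followed Osgin1 from rat to rat was examined by correlation over the 8 rats. This used the 6 members whose representative probe set varied. Pearson's r with Osgin1 was 0.33 for Nqo1, 0.26 for Cat, -0.19 for Gclc, -0.31 for Gsr, -0.36 for Gclm and -0.58 for Sod2. Spearman's rho was 0.21, 0.21, -0.14, -0.31, -0.31 and -0.60 in the same order. No relation passed the test: exact permutation p for r was 0.129 for Sod2 and 0.380 or more for the others, and 0.646 or more after Benjamini-Hochberg adjustment over the 6 relations (n = 8). For rho the exact permutation p was 0.132 for Sod2 and 0.462 or more for the others, and 0.743 or more after adjustment. Since the diets separated Osgin1, r was also computed on deviations from the diet means, where it was -0.24 for Nqo1, -0.15 for Cat, 0.49 for Gclc, 0.31 for Gsr, 0.072 for Gclm and -0.079 for Sod2. The sign turned for every member except Sod2. Without control 2 and control 3, the rats farthest from the Osgin1 median, r was 0.14 for Nqo1, -0.080 for Cat, 0.030 for Gclc, -0.21 for Gsr, -0.24 for Gclm and -0.92 for Sod2. Txnrd1, whose representative probe set did not vary, had r = -0.29 with Osgin1 at its varying probe set (exact permutation p = 0.481, adjusted 0.612 over the 28 pairs described next).

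Gclc, Gclm, Txnrd1 and Gsr correlated with each other over the 8 rats when the GAPDH value was not taken into account. Over all 28 pairs of the 8 varying members, with Txnrd1 at its varying probe set, 5 passed an adjusted p of 0.05 by exact permutation of Pearson's r (n = 8, two-sided), and all 5 joined these 4 genes. The relation of Txnrd1 and Gsr was the closest, with r = 0.98 and rho = 0.98 (exact permutation p = 4.96e-05, adjusted 0.00139). Gclm correlated with Gsr at r = 0.94 and with Txnrd1 at r = 0.92 (exact permutation p = 0.00124 and 0.000496, adjusted 0.00868 and 0.00694). Gclc correlated with Gsr at r = 0.93 and with Txnrd1 at r = 0.88 (exact permutation p = 0.00104 and 0.00213, adjusted 0.00868 and 0.0119). For Gclc and Gclm, the subunits of one enzyme, r was 0.80 and rho 0.74 (exact permutation p = 0.0145, adjusted 0.0677). By Spearman's rho, 3 of the 5 pairs passed, those of Txnrd1 with Gsr (adjusted exact p = 0.0111), Gclm with Gsr (0.0312) and Gclm with Txnrd1 (0.0426). Without L. brevis 4, the rat with the highest values, the pairs among these 4 genes still had r of 0.59 or more, but 1 pair of the 28 passed. The permutation exchanged rats across the diets, so the p-values of the pairs also draw on diet differences of genes chosen with that comparison known. On deviations from the diet means, for which no p was computed, the 6 pairs had r from 0.72 to 0.98. Without the 2 rats farthest from the median of the first gene of each pair, r was 0.69 to 0.98. High r values of this kind were common among the varying genes: 171 of 3805 (4.49%) had r above 0.9 with Gclc, Gsr was at rank 92 and Gclm at rank 438 by likeness to Gclc, and 220 genes had a higher r with Gclc than Txnrd1 had.

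**Figure D3:**
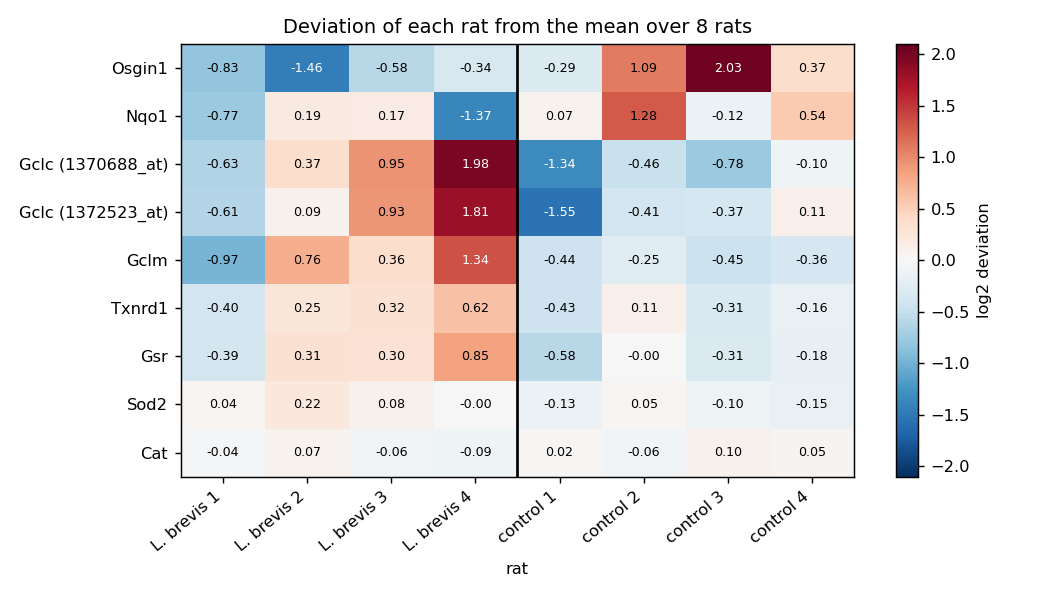
Deviation of each rat (columns, L. brevis rats left of the line and control rats right of it) from the mean over 8 rats in log2 units, for the 9 varying member probe sets (rows); red is above and blue below the mean. Gclc, Gclm, Txnrd1 and Gsr share high values in L. brevis 4 and low ones in L. brevis 1 and control 1, while Osgin1 is highest in control 3 and Nqo1 in control 2.

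These 4 genes also moved with the GAPDH 5' minus 3' value of the array. Over the 8 rats r with that value was 0.94 for Txnrd1, 0.93 for Gsr, 0.88 for Gclc and 0.82 for Gclm, with rho of 0.93, 0.90, 0.76 and 0.90. The exact permutation p for r was 0.000546, 0.000471, 0.00352 and 0.0137 (n = 8, two-sided), or 0.00218, 0.00218, 0.00939 and 0.0274 adjusted over the 8 members tested. For rho the adjusted p was 0.0122, 0.0122, 0.0735 and 0.0122 (exact permutation), so the Gclc relation did not pass by rank. Rats were again exchanged across the diets in this permutation. On deviations from the diet means, for which no p was computed, r was 0.93, 0.89, 0.81 and 0.75. Without L. brevis 4 and control 3 it was 0.93, 0.97, 0.94 and 0.75. Osgin1 (r = -0.51), Nqo1 (-0.22), Sod2 (0.61) and Cat (-0.61) did not pass (exact permutation p adjusted 0.154 or more). After the GAPDH value was regressed out, r was 0.87 for Txnrd1 with Gsr, 0.83 for Gclm with Gsr, 0.78 for Gclm with Txnrd1, 0.63 for Gclc with Gsr, 0.36 for Gclc with Txnrd1 and 0.31 for Gclc with Gclm. On the same residuals r with Osgin1 was 0.64 for Gclc, 0.63 for Txnrd1, 0.53 for Gsr and 0.12 for Gclm. Gclc thus had a higher r with Osgin1 than with Gclm or Txnrd1. No p was computed for residuals. Relations with the GAPDH value were common on these arrays: 11.6% of the 3806 varying genes had r above 0.8 with it and 15.6% had r below -0.8.

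**Figure D4:**
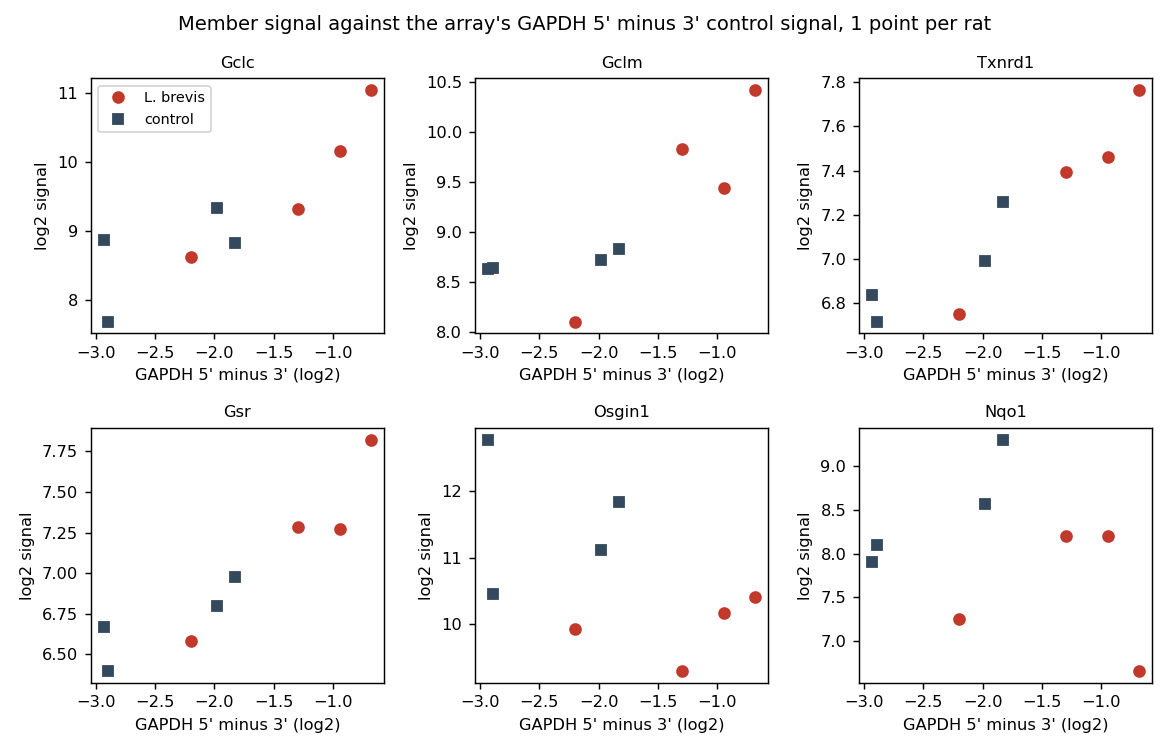
Log2 signal (vertical axes) of 6 members against the GAPDH 5' minus 3' control value of the same array (horizontal axes, log2), 1 point per rat, L. brevis as red circles and control as dark squares. Gclc, Gclm, Txnrd1 and Gsr increase with the control value (r from 0.82 to 0.94 over the 8 rats), while r is -0.51 for Osgin1 and -0.22 for Nqo1.

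By the representative probe sets of 3805 other varying genes, the patterns most like that of Osgin1 over the 8 rats were those of Adra2b, an alpha-2 adrenergic receptor (r = 0.97), Orc2, of the origin recognition complex (0.96), Cog8, of the conserved oligomeric Golgi complex (0.96), Pde2a, a cyclic nucleotide phosphodiesterase (0.95), and Smap2 (0.95). The most opposite were Ssu72, an RNA polymerase II phosphatase (-0.97), Tmem106b, a lysosomal membrane protein (-0.94), and C2h4orf3 (-0.93). These r values are a description over the same 8 arrays, and on deviations from the diet means they lay between 0.88 and 0.95 for the 5 like genes and between -0.94 and -0.83 for the 3 opposite ones. The ranks of the 6 other members compared, counted from the most like, ran from 1337 for Nqo1 to 3496 for Sod2.

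The wider pathway was examined in 94 further genes, of which 88 had a probe set of their own. At the representative probe set, 44 of those varied. In the fit over all probe sets 0.142% were called at an adjusted p under 0.05 (limma, Benjamini-Hochberg). Of these calls, 37 were at probe sets that did not vary. Among all 3806 varying genes 0 were called higher and 2 lower, and of the 44 pathway genes 0 were called. At an unadjusted p under 0.05 there were 3 higher and 1 lower, against 6.91% of all varying genes higher and 13.7% lower. That count of 4 was 9.09% of the 44, beside 20.6% of all varying genes. It was 1 (2.27%) without L. brevis 2 or without L. brevis 3, beside 13.8% and 13.1% of all varying genes. It was 2 (4.55%) without L. brevis 4, without control 3 or with the GAPDH covariate, beside 12.9%, 13.8% and 7.17%. Under quantile normalization or median centring it was 7 (15.9%), beside 24.2% and 25.6%. Without L. brevis 1 it was 15 (34.1%) and with array weights 17 (38.6%), beside 32.7% and 38.4% of all varying genes. By direction, 31 of these 44 had higher means and 13 had lower means, and their median difference was +0.11, whereas of all 3806 varying genes 42.0% were higher and the median was -0.042. Under quantile normalization 26 of the 44 had higher means with a median of +0.044, and without L. brevis 4 the median was +0.069. With the GAPDH covariate 20 of the 44 were higher and 24 lower, with a median of -0.043, beside 43.8% higher and a median of -0.025 over all varying genes.

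The 3 higher genes at that unadjusted threshold were peroxiredoxins, thiol peroxidases that reduce hydrogen peroxide. Prdx3, the mitochondrial form, had 9.40, 9.87, 9.88 and 9.94 in L. brevis rats 1 to 4, against 9.12, 9.44, 9.27 and 9.32 in control rats 1 to 4. L. brevis 2, 3 and 4 were above every control and L. brevis 1 was not, for a difference of +0.49 (SE 0.14, limma adjusted p = 0.347). Prdx6, which also has a phospholipase activity, had 9.53, 10.31, 10.24 and 10.61 in L. brevis rats 1 to 4, against 9.13, 9.75, 9.32 and 9.58 in control rats 1 to 4, a difference of +0.72 (SE 0.26, limma adjusted p = 0.369). Prdx4, the form of the endoplasmic reticulum, had 10.88, 11.79, 11.83 and 11.74 in L. brevis rats 1 to 4, against 10.75, 11.18, 10.57 and 11.09 in control rats 1 to 4, a difference of +0.66 (SE 0.27, limma adjusted p = 0.413). In all 3 genes the L. brevis rat inside the control range was again L. brevis 1. Prdx3 was under an unadjusted 0.05 without any 1 rat, but Prdx4 and Prdx6 were so only without L. brevis 1 or control 2, and none of the 3 was with the GAPDH covariate. With the GAPDH covariate the differences were +0.16 for Prdx3, +0.09 for Prdx6 and +0.03 for Prdx4. The limma adjusted p of Prdx3 ran from 0.0681 without L. brevis 1 to 0.962 with the GAPDH covariate. For all 3 genes it was 0.0721 under median centring, and it was under 0.05 in no setting. In the thioredoxin and peroxiredoxin list as a whole 7 of the 9 that varied had higher means and 2 had lower means (median +0.10).

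The other lists had no gene at an unadjusted p under 0.05 apart from NRF2 control. All 6 varying genes of export and conjugation were higher (median +0.35), as were 5 of 7 in quinone and carbonyl reduction (+0.32), 5 of 6 in superoxide and peroxide removal (+0.14) and 4 of 6 in glutathione synthesis and recycling (+0.05). These directions are without the GAPDH covariate, with which 20 of the 44 varying genes were higher and 24 lower over all lists. NADPH supply had 2 higher and 2 lower (-0.05), and Fech was the only varying gene of the heme and iron list. Osgin2, the relative of Osgin1, held 1 value throughout.

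Among the controllers of the pathway, Nfe2l2, which encodes NRF2 itself, had 9.56, 9.82, 10.17 and 9.83 in L. brevis rats 1 to 4, against 9.27, 9.50, 9.88 and 9.97 in control rats 1 to 4. The groups overlapped and differed by +0.19 (SE 0.20, limma adjusted p = 0.785), or by -0.040 with the GAPDH covariate. Keap1, its inhibitor, held 8.25 on all arrays. The related factor gene Nfe2l1 had 8.63, 8.40, 8.38 and 8.40 in L. brevis rats 1 to 4, against 8.72, 8.58, 8.93 and 8.62 in control rats 1 to 4. L. brevis 2, 3 and 4 were below every control and L. brevis 1 was inside the control range. Its difference was -0.26 (SE 0.10, limma adjusted p = 0.383, and 0.0721 under median centring), and -0.04 with the GAPDH covariate.

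**Figure D5:**
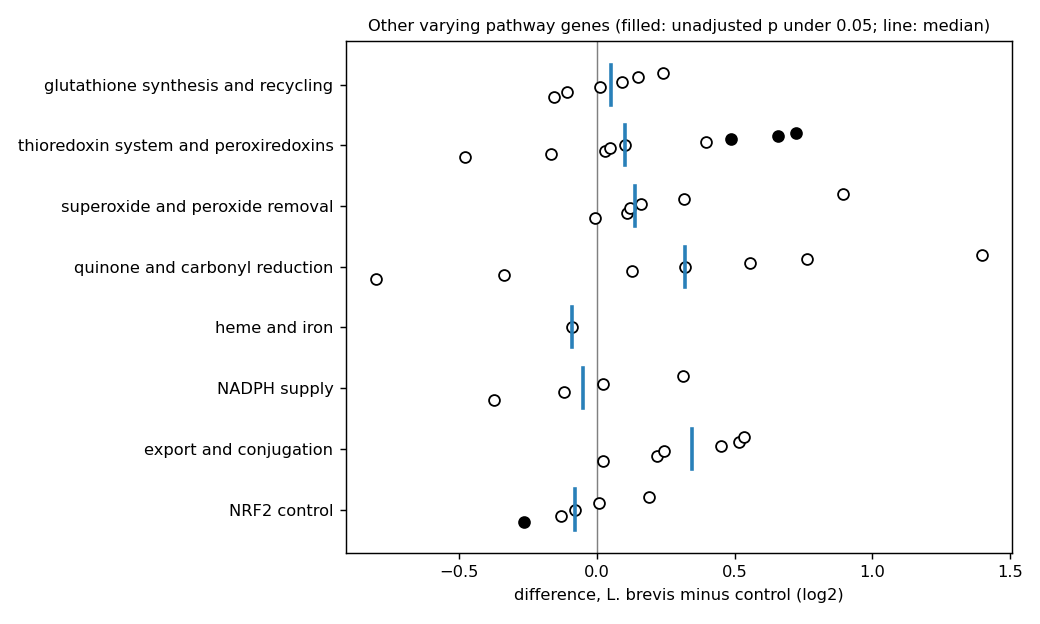
Difference in log2 signal, L. brevis minus control (horizontal axis), of the 44 varying pathway genes that are not among the 10 described, by list (rows); filled points have an unadjusted p under 0.05 (3 peroxiredoxins and Nfe2l1), blue lines are medians. None passed the adjusted threshold, and 31 of the 44 points lie above 0.

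Markers of other cell types gave no call in any list (limma). Only 2 of all 3806 varying genes were called, so nothing is read from this. Macrophage and Kupffer cell markers, which bear on Hmox1, had a summed linear signal of 3864 to 5126 in L. brevis livers and 3517 to 4974 in control livers over the 7 of 8 measured markers that varied. Erythroid markers, which bear on Cat and Sod1 because red cells hold both enzymes, ranged from 2644 to 20901 in L. brevis livers and from 3467 to 8202 in control livers over 3 varying markers. Skeletal muscle markers were higher in mean for all 9 that varied, with sums of 2354 to 10606 in L. brevis livers and 1896 to 3124 in control livers. The lowest L. brevis sum was inside the control range, so the higher means need not reflect every L. brevis liver. The sums of stellate cell markers (3448 to 5524 in L. brevis livers, 3798 to 5520 in control livers) and of cholangiocyte markers (263 to 299 and 240 to 328) overlapped. The part of these cells in the members' values was not tested.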

How the data were processed

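Liver RNA of 8 rats was measured on 1 Affymetrix array each. Per the labels' protocols, RNA was extracted with Trizol, purified on columns and labelled with biotin by a 3' in vitro transcription kit. For every probe set the authors deposited a normalized log2 signal in each array. The summarisation and normalization are not given in the sources used here. That the scale is log2 was inferred from the values. Precision is limited by having 8 arrays.

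The members and gene lists were chosen with earlier results of these data known. Of 31099 probe sets, 57 array controls were left out of the tests. A platform annotation gave 1 gene symbol to 20826 of the rest, several to 436 and none to 9780, and symbols were updated by gene identifier to RefSeq (GRCr8). A gene is represented by its probe set with the highest mean. Varying means a range over 0.01 log2. limma 3.58.1 in R 4.3.3 (lmFit, eBayes with intensity trend, two-sided, Benjamini-Hochberg over all 31042 probe sets, threshold 0.05) compared 4 L. brevis with 4 control arrays and was tested on simulated data. The SE of each difference is limma's. Correlations used exact permutation over all pairings in Python 3.11.15. Of these, the relations of Osgin1 with members at representative probe sets were planned, and the member pairs and the GAPDH relations were not. Named besides the members are pathway genes at an unadjusted p under 0.05, Nfe2l2 and Keap1, and the 5 genes most and 3 least like Osgin1. Fech, Osgin2, Tek and Tie1 were named after their values were seen. Alternatives were quantile normalization, median centring, a replicate block, varying probe sets alone, no intensity trend, array weights, the GAPDH covariate, another probe set per gene and leaving out each rat.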

Additional observations from a re-analysis of the deposited data

Results flagged for a closer look

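L. brevis 1 stood far from the other L. brevis rats at 3 genes, by the gap to its nearest neighbour relative to the range of its group. For Prdx3 it had 9.40, against 9.87 to 9.94 in the other L. brevis rats. For Prdx4 it had 10.88, against 11.74 to 11.83. For Nfe2l1 it had 8.63, against 8.38 to 8.40. This was examined in 28 groups of 4, and chance gives about 1 in 20. L. brevis 1 also had the lowest GAPDH 5' minus 3' value of its group (-2.20) and the lowest array weight (0.32). Without it, 15 of the 44 varying pathway genes had an unadjusted p under 0.05, against 4 with it (34.1% and 9.09%, beside 32.7% and 20.6% of all varying genes), and 0 passed the adjusted threshold (limma).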

How the results depend on the processing

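The differences of Osgin1, Nqo1, Sod2 and Cat moved by less than the spread between rats under every alternative run. Those of Gclc (-0.015 and -0.19), Gclm (-0.19), Txnrd1 (-0.19) and Gsr (-0.10) moved by more with the GAPDH covariate only. The count of pathway genes higher was 20 with that covariate, 26 under quantile normalization and 27 to 32 without any 1 rat, and Nfe2l2 was -0.040 with the covariate. The limma counts of called probe sets, 17 higher and 27 lower of which 37 did not vary, were 0 and 0 under quantile normalization (704 higher and 1015 lower varying probe sets at an unadjusted p under 0.05), 0 and 4 under median centring (997 and 884 at an unadjusted p under 0.05), 0 and 4 over varying probe sets alone (677 and 871 at an unadjusted p under 0.05), 30 and 47 with array weights, 16 and 15 with the covariate, and 30 to 89 and 35 to 91 without any 1 rat. The replicate numbers were not used as pairs, since the labels state no pairing. As a check, deviations of same-numbered rats correlated at 0.36, 0.20, 0.078 and 0.38 for numbers 1 to 4. Only number 3 was under the limit of 0.1. The other 3 L. brevis rats correlated best with their own number, a hint of pairing from the data that the labels do not state. With a replicate block 62 were higher and 66 lower, and 0 pathway genes were called by limma (5 of the 44, or 11.4%, at an unadjusted p under 0.05, beside 24.9% of all varying genes). The relations of Osgin1 changed sign on deviations from the diet means for Nqo1 (-0.24), Gclc (0.49), Gclm (0.072), Gsr (0.31) and Cat (-0.15), and r for Sod2 was -0.079. After the GAPDH value was regressed out they changed sign for Gclc (0.64), Gclm (0.12), Gsr (0.53) and Cat (-0.083). Without any 1 rat the Cat relation ran from -0.27, without control 3, to 0.60, without L. brevis 2. The number of member pairs past the threshold was 1 to 6 without any 1 rat, the lowest without L. brevis 4. The cause of these changes was not tested. The alternatives for the pathway genes' directions, median and unadjusted count (other than another probe set per gene) and for the member pairs were chosen after seeing the data, as were the residuals on the GAPDH value. Probe sets that do not vary limit Hmox1 and Sod1, for which no difference could be measured. They also limit the 44 of the 88 pathway genes whose representative probe set did not vary. With the highest varying probe set of each gene instead, 46 of the 88 could be compared, 33 with higher means and 0 called.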

Other observations

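Among the genes whose pattern over the 8 rats was most like that of Gclc, chosen after the values were seen, were Mtpn, the actin capping regulator myotrophin (r = 0.99), St3gal6, a sialyltransferase (0.99), Map3k1, a kinase of the JNK cascade (0.98), Ppat, the first enzyme of purine synthesis (0.98), Tm9sf1 (0.98), Tmem176b (0.98), Pank3, a pantothenate kinase (0.98), and Lactb (0.98).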
